A study of Homo sapiens with 3 samples.

Results

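The 1452 regions described here were the accessible chromatin peaks that lay within 1 kb of an end of a pseudogene and more than 5 kb from the end of any other kind of gene. They were chosen from the authors' broad peak list of 1 ATAC-seq library, on chromosomes 1 to 22 and X, by the biotypes pseudogene and transcribed pseudogene of a RefSeq gene table. They made up 1.36% of the 106390 peaks called on those chromosomes. Peak height, length and fold played no part in the choice. Within 1 kb of a pseudogene end lay 2343 peaks, 2.2% of all, and of these 891 were left out because an end of another biotype lay within 5 kb. The remaining peaks divided into 1142 at ends of genes of biotype pseudogene, 295 at ends of transcribed pseudogenes, and 15 that lay at ends of both.

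The cells, hCMEC/D3, are a permanent culture of endothelium from small vessels of the human brain, immortalized and grown to confluence on collagen with no treatment and used between passages 4 and 6. ATAC-seq cuts and tags open DNA with the Tn5 transposase, so sequenced ends pile up over accessible sites. The peak list came from ATAC replicate 2, and the series also held 2 RNA libraries of the same line, whose transcript tables were not used because they do not pair identifiers with genes. With 1 library and 1 kind of cell there was no comparison between conditions and no replicate check, and every value below describes that library alone.

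Depth and labels were examined once for the whole list. MACS, the peak caller, read 31532245 tags and kept 22188172 after removing repeated positions. Peaks lay at an end of 8 of 8 endothelial marker genes, among them PECAM1 and CDH5, but also at ends of 3 of 3 mural, 2 of 2 immune and 4 of 5 neuronal and glial markers, AQP4 being the one without. An end peak was called at 73.4% of protein-coding genes and at 42.7% of all genes. With the other marker lists also mostly or wholly at peaks, these counts did not set the endothelial markers apart. The peak list names no genome build. Of all peaks, 14.9% overlapped protein-coding ends at the deposited positions, against 5.39% to 5.68% when the positions were moved by 10 or 50 kb in either direction, and the GRCh38 gene positions were used on that basis.

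Pseudogenes are copies of genes that have lost the ability to make the original product. Processed pseudogenes arose when a messenger RNA or small RNA was reverse transcribed and inserted elsewhere, and usually lack the promoter of the parent gene. Duplicated pseudogenes arose from copying of genomic DNA and can carry the parent's promoter and introns with them. A pseudogene is annotated as transcribed where there is evidence of RNA from it.

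None of the pseudogenes at these peaks, 0 of 1420, had an entry in the RefSeq promoter table. Of the 1452 peaks, 10 lay over the start site window of an RNA from a protein-coding gene whose outer ends were more than 5 kb away. These windows run from 250 bases before to 50 bases after a start. The 3 highest peaks of this kind in each biotype are shown, because they are the peaks called pseudogene-only by the rule that also cover a known start of another gene. The sequences are from RefSeq, build GRCh38.p14, written 5′ to 3′ on the strand of the gene, with capitals marking every match, on either strand, to the TATA box TATAAA, the CCAAT box, the GC box GGGCGG, the ETS motif CCGGAAG or the AP-1 motif TGANTCA.
GNB4 start, chr3:179451421-179451720, minus strand, under the peak at RPL29P34: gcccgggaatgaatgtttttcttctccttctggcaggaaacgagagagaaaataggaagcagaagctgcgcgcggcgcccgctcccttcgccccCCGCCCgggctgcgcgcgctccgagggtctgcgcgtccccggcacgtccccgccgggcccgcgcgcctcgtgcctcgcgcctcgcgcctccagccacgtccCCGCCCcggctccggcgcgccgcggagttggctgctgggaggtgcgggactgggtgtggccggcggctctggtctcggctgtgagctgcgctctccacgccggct
MIA3 start, chr1:222644079-222644378, plus strand, under the peak at LOC107985098: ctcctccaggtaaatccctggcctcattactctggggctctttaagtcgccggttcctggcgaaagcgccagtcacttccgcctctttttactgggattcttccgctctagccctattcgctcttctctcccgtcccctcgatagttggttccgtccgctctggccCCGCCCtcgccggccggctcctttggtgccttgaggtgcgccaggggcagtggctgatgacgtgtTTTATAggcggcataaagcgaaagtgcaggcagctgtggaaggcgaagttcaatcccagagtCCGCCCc
DYRK4 start, chr12:4604649-4604948, plus strand, under the peak at LOC103568124: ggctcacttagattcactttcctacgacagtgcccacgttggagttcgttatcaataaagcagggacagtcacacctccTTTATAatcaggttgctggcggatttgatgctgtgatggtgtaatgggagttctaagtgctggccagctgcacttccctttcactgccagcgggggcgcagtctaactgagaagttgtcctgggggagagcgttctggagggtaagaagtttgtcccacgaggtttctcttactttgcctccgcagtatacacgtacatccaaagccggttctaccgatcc
BBS12 start, chr4:122732454-122732753, plus strand, under the peak at CETN4P: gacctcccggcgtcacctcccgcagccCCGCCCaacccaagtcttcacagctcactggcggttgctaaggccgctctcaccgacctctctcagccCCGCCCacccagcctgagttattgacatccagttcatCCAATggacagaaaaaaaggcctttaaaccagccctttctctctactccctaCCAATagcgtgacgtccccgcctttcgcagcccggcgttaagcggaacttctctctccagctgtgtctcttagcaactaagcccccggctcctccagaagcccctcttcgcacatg
ATAD1 start, chr10:87818177-87818476, minus strand, under the peak at CFL1P1: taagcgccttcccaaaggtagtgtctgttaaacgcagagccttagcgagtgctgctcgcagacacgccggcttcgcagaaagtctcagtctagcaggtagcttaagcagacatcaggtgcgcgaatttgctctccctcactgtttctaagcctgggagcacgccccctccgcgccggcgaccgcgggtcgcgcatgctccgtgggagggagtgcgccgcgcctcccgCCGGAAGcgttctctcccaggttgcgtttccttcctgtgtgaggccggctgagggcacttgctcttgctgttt
TCF20 start, chr22:42270604-42270903, minus strand, under the peak at OGFRP1: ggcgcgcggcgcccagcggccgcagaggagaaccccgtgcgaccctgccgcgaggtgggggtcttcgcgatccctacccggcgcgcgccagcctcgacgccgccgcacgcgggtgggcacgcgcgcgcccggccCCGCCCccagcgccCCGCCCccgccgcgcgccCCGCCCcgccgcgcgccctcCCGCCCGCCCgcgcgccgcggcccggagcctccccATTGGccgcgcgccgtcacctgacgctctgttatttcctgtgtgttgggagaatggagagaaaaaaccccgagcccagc
The GNB4, MIA3, DYRK4, BBS12 and ATAD1 windows lay wholly under their peaks, whereas 185 of the 300 bases of the TCF20 window did. The BBS12 window held 2 matches to the CCAAT box and 2 to the GC box GGGCGG, and the TCF20 window held 1 and 5. The GNB4 window held 2 GC boxes, the MIA3 window 2 GC boxes and 1 TATAAA, the DYRK4 window 1 TATAAA alone, and the ATAD1 window 1 match to the ETS motif CCGGAAG.

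Over all 11 start windows under these 10 peaks, since SLC7A8 had 2, the matches can be set beside those of the whole table, though 11 windows are few. GGGCGG was found in 5 of the 11, against 44.95% of all 35116 windows in the table. CCAAT was found in 4 of 11 against 34.6%, TATAAA in 2 against 11.5%, TGANTCA, the AP-1 motif, in 2 against 7.71%, both being the overlapping SLC7A8 windows with 1 shared site, and CCGGAAG in 1 against 10.3%. None of the 5 motifs contains another, and a match describes the letters of the window, not the binding of a factor. Median GC content was 59.7% in the 11 windows and 58.7% over the table.

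The genes with these starts serve unlike functions. GNB4 encodes a G protein beta subunit, and the peak at the ribosomal protein copy RPL29P34 inside it was 1626 bp long with a pileup of 61.02 tags, the pileup being the mean number of extended tags stacked along the peak. MIA3, which exports large cargo such as collagen from the endoplasmic reticulum, had a peak of 1005 bp and 58.61 tags at LOC107985098. The protein kinase gene DYRK4 had one of 674 bp and 51.04 tags at LOC103568124. Among transcribed pseudogenes, CETN4P, a centrin copy, had 85.18 tags over the start of BBS12, a gene of the Bardet-Biedl syndrome chaperonin complex. The cofilin copy CFL1P1 had 38.47 tags over the start of ATAD1, a mitochondrial outer membrane ATPase, and OGFRP1 had 26.81 tags over that of TCF20, a transcriptional coregulator. The other 4 such peaks, at BANF1P1, RNU6-1138P, INGX and DPPA3P1, covered starts of ACTN1, SLC7A8, TAF1 and TMSB15B, with pileups from 17.75 (DPPA3P1) to 46.55 (BANF1P1) tags. The 10 peaks had a median pileup of 42.5 tags against 19.5 for the other 1442.

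Peaks at transcribed pseudogenes were wider and higher than those at other pseudogenes. The median length was 676 bp (quartiles 401 and 1089, n = 295 peaks) at transcribed pseudogenes and 432 bp (287 and 631, n = 1142) at pseudogenes. Median pileup was 28.5 tags (16.5 to 45.3) against 18.1 tags (13.0 to 28.6). The quartile ranges overlapped for both measures, so many single peaks of either biotype could not be told from the other by height or width.

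The difference in fold, which MACS gives as pileup over the local background of the same region, was smaller. Its median was 4.996 at transcribed pseudogenes and 4.59 at pseudogenes, with quartiles of 3.91 to 6.25 and 3.75 to 6.08. The local background, worked back approximately from pileup and fold, was itself higher at transcribed pseudogenes, with a median of 3.91 against 2.45 tags. It stood at its floor for 26.4% of the peaks at transcribed pseudogenes and 48.3% of those at pseudogenes. The floor of 2.37 tags is the mean that the caller works out from its mouse genome size, which also sets the fold of peaks standing at it, and the effect of that size was not tested. The part of the surrounding signal in the difference in pileup was not tested.

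Set beside peaks chosen the same way at other genes, the peaks at pseudogenes were nearest to those far from any gene end. The 61122 peaks more than 5 kb from every gene end, which can lie inside a long gene, were 401 bp long and 18.8 tags high at the median, close to the 432 bp and 18.1 tags at pseudogenes. The 3862 peaks only at lncRNA ends, at 529 bp and 23.8 tags, lay between the biotypes. The 10427 peaks only at protein-coding ends were the widest and highest of these sets, at 912 bp and 38.6 tags, above transcribed pseudogenes on both measures. Median fold spanned only 4.54 to 4.996 over these sets, and that of transcribed pseudogenes was the highest.

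**Figure D1:**
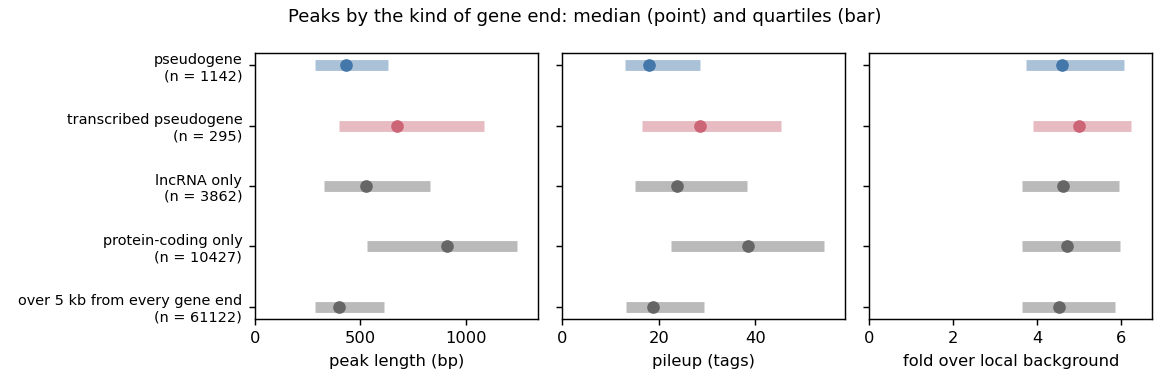
Median (point) and quartiles (bar) of peak length in bp, pileup in tags and fold over local background, for peaks at pseudogene ends, at transcribed pseudogene ends and for 3 sets chosen by the same distances. Transcribed pseudogenes (median 676 bp, 28.5 tags) lie between lncRNA-only and protein-coding-only peaks in length and pileup, pseudogenes (432 bp, 18.1 tags) beside peaks over 5 kb from every gene end, and the fold differs little.

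The 15 peaks at ends of both biotypes were 704 bp long and 23.6 tags high at the median. The highest, of 65.11 tags on chromosome 16 from 30334445 to 30336029, lay at SMG1P5, a copy of the nonsense-mediated decay kinase SMG1, and at LOC100421031. The widest of all 1452 peaks, 3015 bp and 48.34 tags, lay at SMG1P2 and SLC7A5P1, also on chromosome 16. BMS1P4-AGAP5 shared a peak of 47.06 tags with BMS1P4, DUSP8P5 and GLUD1P3. The remaining 12 lay between 12.44 tags at LOC101929322 and 34.30 tags at WASH8P.

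Pseudogenes with a peak were the exception, and transcribed ones less so. A pseudogene-only peak lay at 7.45% of the 15096 genes of biotype pseudogene (1124 genes) and at 24.1% of the 1230 transcribed pseudogenes (296 genes), which is 8.7% of all 16326. Counting any peak within 1 kb of an end, whatever else lay nearby, the shares were 11.3% and 43.5%, against 38.8% of lncRNA genes and 73.4% of protein-coding genes. Among the pseudogenes with no end of another biotype within 6 kb, called isolated here, 1018 of 11172 (9.11%, Wilson 95% interval 8.59 to 9.66) and 195 of 617 transcribed ones (31.6%, 28.1 to 35.4) had a peak. The intervals cover counting error only, and at this depth, with no peak called below 8 tags, a pseudogene with no peak is one where none was detectable.

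The share of isolated pseudogene ends with a peak was set beside stretches of the same size away from gene ends. Of 22940 isolated ends of pseudogenes, 7.12% (6.79 to 7.46) had a peak within 1 kb, and of 1559 ends of transcribed pseudogenes, 20.1% (18.2 to 22.2). The shares for isolated lncRNA and protein-coding ends were 15.3% and 41.1%. Windows of 2 kb on a regular 10 kb grid, away from all gene ends, had a peak in 6.16% of cases, 7.97% inside genes and 4.16% between genes. The share at pseudogene ends thus lay between these, and that at transcribed pseudogene ends above both. The windows between genes include assembly gaps, where no tag can be placed. The 2 ends of a gene were counted as separate windows. Those of a short gene overlap and can share a peak, so the intervals over ends are too narrow.

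Where the pseudogene sat changed this comparison. Ends of pseudogenes inside a gene of another biotype had a peak in 7.90% of cases (7.39 to 8.45), which is the level of the grid windows inside genes. Outside such genes the share was 6.52% (6.11 to 6.96), above the 4.16% of the grid windows between genes. Transcribed pseudogenes ran the other way, with 12.7% (9.50 to 16.7) inside other genes and 22.2% (19.9 to 24.6) outside.

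**Figure D2:**
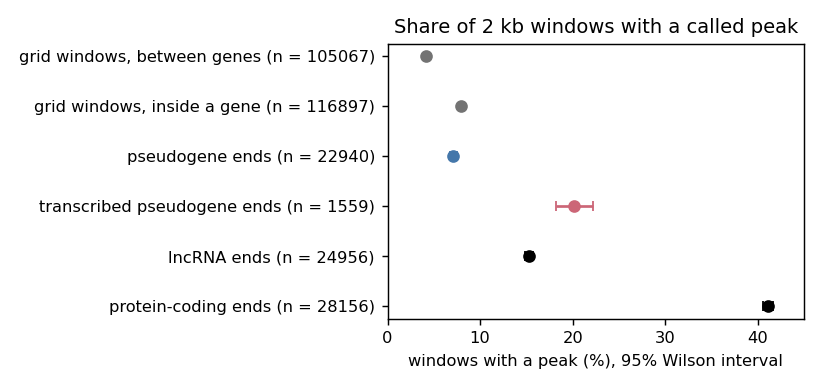
Share in percent of 2 kb windows with a called peak (point, with its 95% Wilson interval for counting error), for windows around isolated gene ends of 4 biotypes and for grid windows away from gene ends. The 2 ends of a gene count as separate windows, which can overlap, so intervals over ends are too narrow. Pseudogene ends (7.12%) lie between the grid windows between genes (4.16%) and inside genes (7.97%), and transcribed pseudogene ends (20.1%) lie above lncRNA ends (15.3%).

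The longest pseudogenes had a peak most often in both biotypes. The 1 kb stretches around the 2 ends of a short gene overlap, so a long gene offers more sequence for a peak. The part of this in the shares below was not tested. Among isolated genes of biotype pseudogene the share was 8.81% under 300 bp, 7.96% from 300 to 999 bp, 10.1% from 1000 to 4999 bp and 16.7% at 5000 bp or more. For transcribed pseudogenes it was 8.70% of 69 genes from 300 to 999 bp, 23.4% of 192 from 1000 to 4999 bp, and 40.7% of 354 at 5000 bp or more. The 2 biotypes therefore had like shares among the short genes, with an interval of 4.05 to 17.7 for the 69, and differed within the longer classes. Processed copies are as short as the RNA they came from, and duplicated copies keep introns.

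Height followed the same division. In the class of 5000 bp or more, the highest end peak of a gene had a median pileup of 36.8 tags at transcribed pseudogenes and 19.1 tags at pseudogenes. From 1000 to 4999 bp the medians were 20.4 and 17.4 tags. The median gene length of pseudogenes with one of these peaks was 748 bp, and that of transcribed pseudogenes 16589 bp. Those without one had medians of 638 and 6774 bp. The genes with a peak thus had the longer median in each biotype, with the same limit that a long gene offers more sequence.

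At transcribed pseudogenes most peaks covered a gene end, and at pseudogenes they were spread around it. A peak covered an annotated end in 177 of 295 cases (60.0%, 54.3 to 65.4) at transcribed pseudogenes and in 310 of 1142 (27.1%, 24.6 to 29.8) at pseudogenes. Peaks overlapped the pseudogene itself in 81.0% and 43.5% of cases. The centre of the peak lay a median of 29.5 bp inward of the nearest end at transcribed pseudogenes, and at -388 bp, that is outside the gene, at pseudogenes. Within 250 bp of the end on either side, the 250 bp bins held 21.7% and 27.1% of the peaks at transcribed pseudogenes and 14.4% and 12.6% of those at pseudogenes. A short gene leaves little room inward, and its part in the outward position at pseudogenes was not tested. Peaks at transcribed pseudogenes were also wider, and a wider peak covers an end more readily. The part of width in the shares covering an end was not tested.

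**Figure D3:**
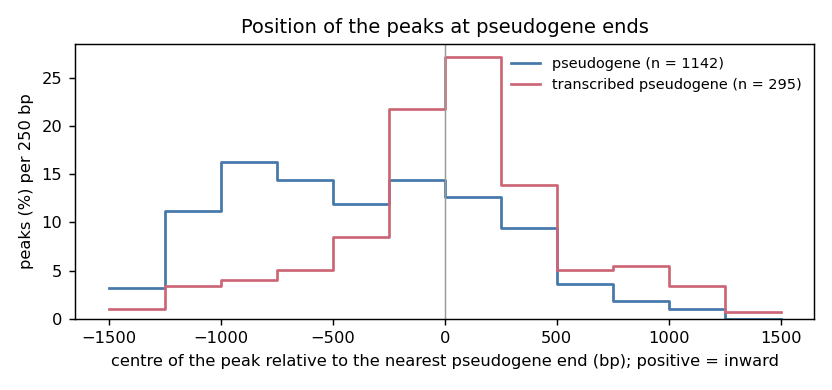
Share of peaks in percent per 250 bp bin by the position of the peak's centre relative to the nearest pseudogene end in bp, positive values lying inside the gene, for 1142 peaks at pseudogenes and 295 at transcribed pseudogenes. The curve for transcribed pseudogenes is highest in the bin just inside the end (27.1%), while that for pseudogenes is highest from 1000 to 750 bp outside (16.3%) and spread from 1250 bp outside to 500 bp inside.

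By median, the difference in height between the biotypes lay among the peaks that covered an end. Those that did not cover one had a median pileup of 17.2 tags in both biotypes and median lengths of 401 bp (n = 118, transcribed) and 382 bp (n = 832). Those that did had 37.7 tags and 926 bp (n = 177) at transcribed pseudogenes and 21.3 tags and 553 bp (n = 310) at pseudogenes. The fold followed, with 5.53 and 5.09 for peaks over an end and 4.34 and 4.45 for the others. Since a wider peak covers an end more readily, this division also sorts peaks by width. The part of width in it was not tested. Only 44 peaks at pseudogenes, and 1 at a transcribed pseudogene, covered the whole gene.

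Many peaks at pseudogenes lay within other genes, as did many pseudogene ends with or without a peak. The body of a gene of another biotype held 533 of the 1142 peaks (46.7%) at pseudogenes and 43 of the 295 (14.6%) at transcribed ones. Protein-coding genes were hosts to 479 of these peaks and lncRNA genes to 113, some peaks having both. Of the 22940 isolated ends of pseudogenes, with or without a peak, 9933 lay inside a gene of another biotype. Of the 1559 ends of transcribed pseudogenes, 332 did. At pseudogenes the height was the same in both places, with a median of 18.1 tags inside other genes and 18.1 outside. At transcribed pseudogenes it was 23.6 tags inside and 28.9 tags outside.

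The highest peaks at pseudogenes began with a block of ribosomal RNA copies on the short arm of chromosome 21. The 3 peaks there, of 12 on that chromosome, had pileups of 122.29 tags at RNA5-8SP10, RNA18SP5 and LOC110467529, and 111.45 and 104.85 tags at LOC110467529. Their folds of 1.78, 2.37 and 1.70 were among the lowest in the set, whose smallest fold was 1.70. The local background there was 68.2, 46.5 and 61.3 tags, against a median of 2.70 over all 1452 peaks. They stand apart from the other peaks in the plot of pileup against background. How reads with several matches were placed is not given in the sources used here.

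Below that block the highest peaks at pseudogenes had a local background of 5.70 to 18.2 tags. UQCRBP2, a copy of a subunit of respiratory complex III, had a peak of 87.31 tags and 642 bp on chromosome 1 from 162541604 to 162542245, over its end. OR10J6P, an olfactory receptor pseudogene, had one of 86.19 tags centred on its end on chromosome 1. RN7SKP11, a copy of the 7SK RNA that restrains transcription elongation, had 83.86 tags on chromosome 12. RN7SL353P and RN7SL346P are copies of the 7SL RNA of the signal recognition particle and had 83.82 and 82.03 tags. FAM86GP had 80.41 tags, and the mitochondrial copy MTCYBP13 had 82.62 tags.

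The highest folds and the widest peaks at pseudogenes fell on other genes. RNU6-821P, a copy of the spliceosomal U6 RNA near the end of the long arm of chromosome 3, had the highest fold of the set, 12.7, in a peak of 547 bp and 77.29 tags that lay 346 bp outside the gene. MTCYBP13 and MTND6P3 followed with folds of 12.5 and 12.2. The widest peaks were 1978 bp at LOC100288712, 1646 bp at RPS27P30 and 1637 bp at RPL13AP27. RPL13AP27 lies inside ATG7, an autophagy gene, and its peak was 668 bp outside the copy, while the RPS27P30 peak inside the microtubule gene MAP4 covered an end of it.

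The highest peaks at transcribed pseudogenes nearly all covered an end of the gene, LOC100133920 being the exception among the 10. LOC102724904 on chromosome 9 had 91.82 tags over 1823 bp and RNF4BP on chromosome 15 had 90.91 tags over 1121 bp, both over an end. Their local backgrounds were 26.5 and 17.7 tags, with folds of 3.38 and 4.91. The median background at transcribed pseudogenes was 3.91 tags. NCF1C, on chromosome 7 from 75156300 to 75157470, had 85.24 tags over 1171 bp, and its sister copy NCF1B had 73.22 tags. Their parent NCF1 encodes a subunit of the phagocyte NADPH oxidase and had a peak of 72.37 tags. Reads that match both a copy and its parent could be divided between them, so such heights are uncertain. SLC7A5P2, a copy of the large neutral amino acid transporter of the blood-brain barrier, had 79.39 tags over 2369 bp. Its fold was only 2.62, over a local background of 29.7 tags. The parent SLC7A5 had 79.24 tags and a fold of 3.34 in a peak of 458 bp that lay 817 bp from its end.

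The rest of the 10 highest at transcribed pseudogenes ran from 75.34 to 77.67 tags. SERPINB9P1, a copy of the granzyme B inhibitor, had 76.77 tags against 40.45 at SERPINB9. GTF2IRD1P1 had 75.34 tags against 29.39 at its parent, a transcription factor gene of the Williams syndrome region. LOC100133920 had 77.67 tags and GBA1LP had 75.88. The widest peaks here were 2525 bp at ZNF767P and 1929 bp at SDHAP1, beside SLC7A5P2. The highest folds were 10.6 at HERC2P10, 10.2 at LOC100652871 and 9.997 at HLA-DPB2, a pseudogene of the class II antigen presentation genes.

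**Figure D4:**
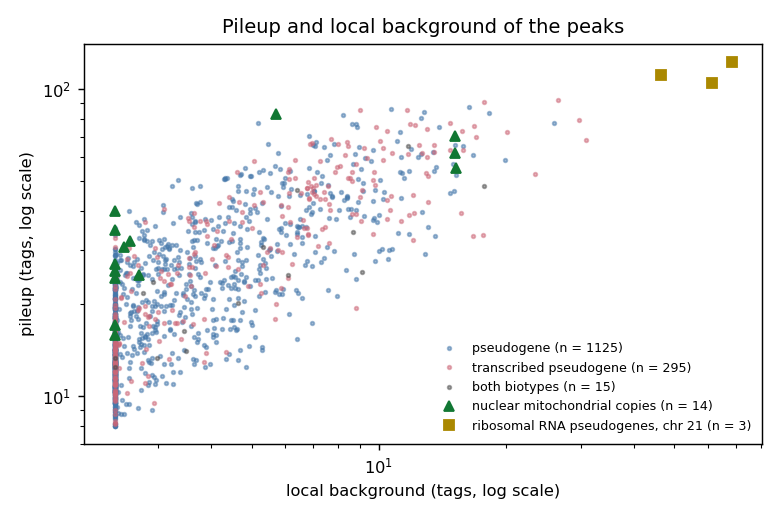
Pileup in tags against local background in tags for the 1452 peaks, both on log scales, with the peaks at nuclear copies of mitochondrial genes (triangles, n = 14) and at the ribosomal RNA pseudogenes of chromosome 21 (squares, n = 3) marked. The squares lie apart at a background of 46.5 to 68.2 tags, and the vertical band at the left is the floor of 2.37 tags.

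Some peaks lay at the ends of several pseudogenes at once. More than 1 pseudogene lay within 1 kb of 68 of the 1452 peaks, with at most 4 at 1 peak, and 107 pseudogenes had more than 1 peak, with at most 3. On chromosome 7, copies of the mismatch repair gene PMS2 and of the cohesin gene STAG3 shared 4 peaks. These were 76.17 tags at PMS2P7 and STAG3L3, 67.90 at PMS2P4 and STAG3L4, 53.86 at PMS2P5 and STAG3L2, and 44.32 at PMS2P2 and STAG3L1. All 4 were 1328 to 1413 bp long and had folds of 5.70 to 6.24, against 1177 bp, a fold of 6.62 and 71.01 tags at PMS2 itself, a height between those of the copies.

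Copies of the cytoskeletal GTPase gene SEPTIN7 and of the transcription factor gene GTF2I formed a like arrangement on 3 chromosomes. SEPTIN7P14 with GTF2IP12 on chromosome 4 had a peak of 64.12 tags and 1520 bp, SEPTIN7P2 with GTF2IP13 on chromosome 7 one of 56.04 tags and 1452 bp, and SEPTIN7P13 with GTF2IP20 on chromosome 1 one of 53.69 tags and 1658 bp. SEPTIN7 itself had 60.24 tags and 1693 bp. Copies in these groups are known to be near-identical in sequence, so that reads could be divided between copies, and the heights of single copies are uncertain.

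Families of copies were read from the symbols, as the text before the final P and number. A protein-coding parent could be named in this way for 742 of the 1420 pseudogenes, and 185 had only a LOC symbol. The largest groups were the small RNA copies, with a peak at 234 of 3346 genes, and the ribosomal protein copies, at 168 of 1990. Because transcribed pseudogenes had a peak more often, the lists were compared over isolated genes of biotype pseudogene, of which 9.11% had one. Ribosomal protein copies were at 10.2% (8.72 to 11.8, 148 of 1456) and small RNA copies at 9.18% (8.09 to 10.4, 223 of 2430), both near that background.

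Of the 18 lists defined by symbol, 16 had intervals that held 9.11%. Copies of olfactory, taste and vomeronasal receptors, genes of sensory cells, lay below it at 4.75% (3.10 to 7.22, 20 of 421 isolated). Keratin copies lay above it at 15.7% (10.1 to 23.4, 18 of 115). Copies of HNRNP genes, which package messenger RNA, were at 3.85% (1.51 to 9.47, 4 of 104) and nuclear copies of mitochondrial genes at 6.63% (4.57 to 9.54, 26 of 392). With 18 lists set side by side and no test, a single interval on either side is a description.

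For zinc finger copies the share differed between the biotypes, with gene length not held equal. Over both biotypes 10 of 56 isolated zinc finger pseudogenes (17.9%) had a peak, the highest share of the lists, but 29 of the 87 genes of this list were transcribed pseudogenes, as were 12 of the 15 with a peak. Among those of biotype pseudogene the share was 6.82% (2.35 to 18.2, 3 of 44), and among the transcribed ones 7 of 12 had a peak.

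**Figure D5:**
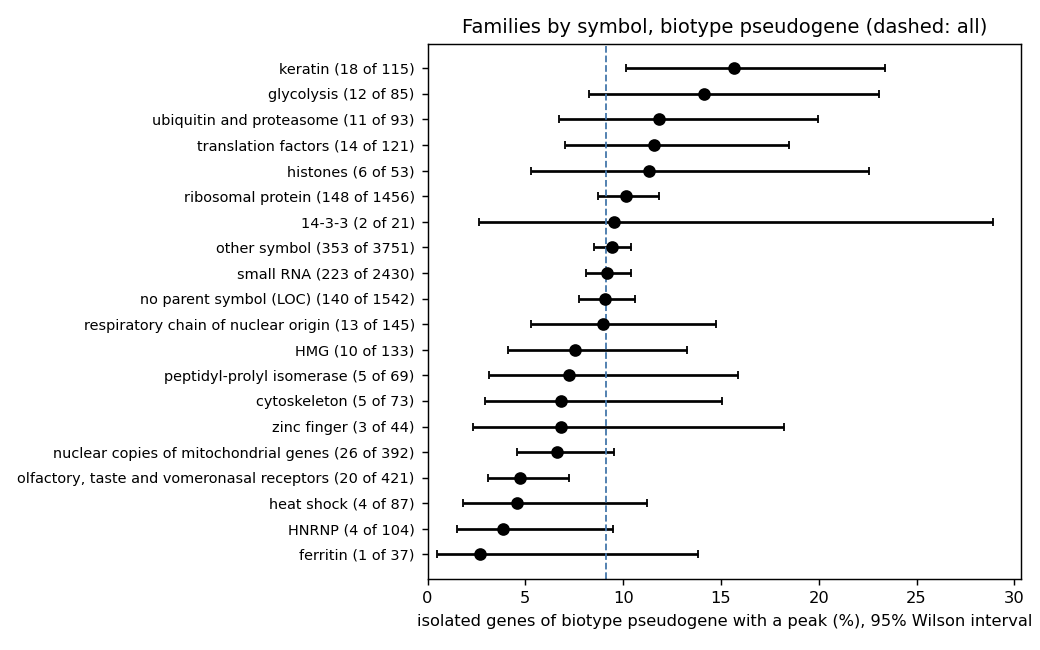
Share in percent of isolated genes of biotype pseudogene with a peak at an end, for each list of symbols with at least 20 such genes, with 95% Wilson intervals for counting error and the number with a peak of the number of genes in brackets. The dashed line is the 9.11% of all isolated genes of that biotype; the interval of keratin copies (15.7%) lies above the line and that of receptor copies (4.75%) below it.

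The lists also differed in where and how high the peaks were. Zinc finger pseudogenes, mostly transcribed ones, had the highest median pileup of the lists, 34.0 tags, with 12 of 16 peaks over an end, led by ZNF619P1 with 70.08 tags over its end. No peak at a keratin copy covered an end, 0 of 21, and their median pileup was 14.7 tags. KRT8P42, inside the kinase gene SGK1, had the highest of them with 60.91 tags. Peaks at small RNA copies lay inside a gene of another biotype in 156 of 240 cases, at ribosomal protein copies in 101 of 179, and at zinc finger copies in 3 of 16. How often copies without a peak lie inside other genes is not given here by list. Among ribosomal protein copies RPL12P7 had the highest peak, 67.66 tags, 963 bp outside the gene.

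The leading peak of each smaller list is given for reference. NDUFB3P3, a complex I copy, had 76.99 tags, second to UQCRBP2 among respiratory chain copies, and HMGB1P50 had 75.29 tags over its end among copies of high mobility group genes. UBE2Q2P2 led the ubiquitin and proteasome list with 68.77 tags, ENO1P3 the glycolysis list with 49.51 tags, EIF4EBP2P2 the translation factor list with 49.38 tags and HSPE1P11 the heat shock list with 49.34 tags. The cytoskeleton list was led by ACTG1P25 with 44.90 tags, the HNRNP list by HNRNPA1P71 with 34.76, the histone list by H3P3 with 24.82 and the peptidyl-prolyl isomerase list by PPIAP68 with 20.65. The ferritin list held 1 peak, at FTLP14, and the 14-3-3 list 2, at YWHAQP8 and YWHABP1.

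Single parents with at least 4 such copies were also examined, and since they were chosen for that number their shares are a description. Over all pseudogenes 8.7% had such a peak. RPS20, a small subunit protein, had 12 of its 35 copies (34.3%) with a peak, all among the 27 isolated ones. The 14 peaks at RPS20 copies ran from 10.09 tags at RPS20P8 to 51.91 at RPS20P4, with a median of 20.2, and 7 covered an end. RPL21 had 13 of 137 copies with a peak (9.49%), near the share over all pseudogenes, and RPL7A 11 of 80 (13.75%). KRT18, a keratin of simple epithelia, had 13 of 67 (19.4%), none of the peaks covering an end, from 9.77 tags to 54.52 at KRT18P25.

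Copies of DNM1, HERC2 and GUSB had higher peaks, with median pileups of 27.9, 50.5 and 42.1 tags. DNM1, which encodes the membrane fission GTPase dynamin, had 11 of 26 copies with a peak and 14 peaks in all, 12 of them on chromosome 15. They ran from 14.14 tags at DNM1P47 to 51.29 at DNM1P35, with 46.60 at DNM1P9. HERC2, a ubiquitin ligase gene, had 4 of 11 copies with a peak, of 53.85 tags at HERC2P3, 51.07 at HERC2P2, 49.91 at HERC2P11 and 34.60 at HERC2P10. The peak at HERC2 itself had 41.64 tags, inside the range of its copies. Copies of GUSB, a lysosomal glucuronidase, had 55.81 tags at GUSBP3, 46.23 at GUSBP14, 37.90 at GUSBP1 and 32.43 at GUSBP11, around the 49.98 of the parent. Here too, reads that match both a copy and its parent could be divided between them, so single heights are uncertain. The HERC2 and GUSB copies with a peak, 4 of 11 and 4 of 19, were all transcribed pseudogenes, and 3 of the 11 DNM1 copies were. Such a peak lay at 24.1% of all transcribed pseudogenes and at 8.7% of all pseudogenes.

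For the other parents with at least 4 such copies the highest peak of each is given. Among ribosomal proteins these were 58.75 tags at RPL36AP44, 56.00 at RPL23AP23, 54.82 at RPL7AP47, 51.38 at RPL21P18, 46.70 at RPL31P25, 45.19 at RPL17P36, 42.98 at RPS18P3, 42.68 at RPL32P36, 38.10 at RPS2P40, 25.12 at RPL7P52, 21.90 at RPL22P2 and 17.26 at RPSAP45. The peaks at RPL23AP23, RPL31P25 and RPL32P36 covered an end of the copy, and the others in this group did not. Copies of other parents had 66.80 tags at GOLGA2P7, 39.55 at NPM1P27, a nucleophosmin copy, 32.44 at ST13P6, 29.05 at GAPDHP20, 28.65 at TBC1D3P6, 28.31 at EEF1A1P25, 26.44 at HMGN1P33 and 24.76 at CDRT15P3. Among small RNA copies the highest were 61.43 tags at RNA5SP160, 53.64 at RNU4-41P, 40.40 at RNU7-195P, 34.29 at RNY5P5, 32.24 at RNU1-38P and 27.81 at RNU6ATAC31P, beside RNU6-821P and the 7SK and 7SL copies above.

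Copies of BCR on chromosome 22 split into an upper and a lower group. BCRP2 and BCRP4 had 37.10 and 32.10 tags in peaks over an end. BCRP1, BCRP6 and BCRP7 had 16.33, 15.71 and 15.40 tags in peaks 693, 661 and 689 bp outside the gene. All 5 lay below the 43.25 tags of the parent. The like distance of the lower group goes with gene lengths of 6366, 6361 and 6360 bp, and reads could be divided between these 3 as well.

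Most parents of the pseudogenes had an end peak of their own in these cells. Of the 387 different parents of pseudogenes with a peak, 360 (93.0%, 90.0 to 95.2) had a peak within 1 kb of an end, against 73.4% of all protein-coding genes. The share was 90.2% (88.8 to 91.4) for the 2002 parents of pseudogenes without one, a list that can hold the same parents, so the figure was near the same whether or not the copy had a peak. For transcribed pseudogenes it was 86.8% (92 of 106) and 85.9% (237 of 276).

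The parent's peak was usually the higher one. Taking the highest end peak of each, the parent stood above its copy in 503 of 555 pairs of biotype pseudogene, with median pileups of 54.1 and 18.2 tags. A pair needs an end peak at the parent, and 593 copies with a pseudogene-only peak had a named parent. Peaks only at protein-coding ends were higher in general, at a median of 38.6 tags against 18.1 at pseudogenes. Pairs with unrelated coding genes were not made, so the part of parentage was not tested. At transcribed pseudogenes the parent stood above in 89 of 130 pairs, from 149 copies with a named parent, with medians of 49.98 and 34.9 tags. UQCRBP2 was among the exceptions, with 87.31 tags against 49.08 at UQCRB. A parent with many copies counts once for each copy here, so the pairs are not independent.

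Nuclear copies of mitochondrial genes were few but had high folds. Fragments of the mitochondrial genome inserted into chromosomes gave 14 peaks at 26 of 465 such genes. Their median pileup was 31.3 tags and their median fold 7.70, against 19.5 tags and 4.66 over all 1452. These copies resemble mitochondrial DNA, and the placement of reads with several matches is not given in the sources used here. Whether tags at them came from mitochondrial DNA was not tested.

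The mitochondrial copies divided by local background. On chromosome 5, inside PCBD2, 3 neighbouring peaks between 134923736 and 134927815 had 70.24 tags at MTND4LP30, 62.10 at MTND5P11 and 55.34 at MTCYBP18, with folds of 4.41, 3.90 and 3.48 over a background of 15.2 tags each. MTCYBP13 on chromosome 17 had 82.62 tags and the highest −log10 q-value of the 1452 peaks, 69.0. MTND6P3 had 40.06 tags, MTCO2P2 34.80, MTND4P35 31.96 and MTATP8P2 30.65, with folds of 12.2, 10.6, 9.20 and 9.05. MTCO1P40, MTND6P22, MTCO1P2 and MTCO1P53 had 26.89, 25.65, 24.89 and 24.32 tags. The lowest were MTND2P32 and MTND4P39 on chromosome 8, with 17.05 and 15.78 tags and folds of 5.35 and 4.97.

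Peaks on either side of the limits of the rule were of mixed height. Just inside the 1 kb limit, PSMA2P2 at 999 bp had 19.96 tags and LOC100996737 at 1000 bp had 12.96. Just outside, RN7SL361P at 1001 bp had 11.05 tags and LOC100462988 at 1005 bp had 11.01. At the 5 kb limit, METTL15P1 (31.35 tags, another end 4955 bp away) and PKD1P2 (19.17 tags, 4967 bp) were left out. EGLN1P1 (62.20 tags, 5001 bp) and CYP3AP2 (10.34 tags, 5013 bp) were kept.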

How the data were processed

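The peak list was deposited by the authors for ATAC replicate 2; 0 other per-sample columns were used. Per the file headers, MACS 2.2.7.1 called broad peaks without a control, in single-end mode on tags of 75 bp (the labels describe paired-end reads), with a shift of -100 and an extension of 200 bp, cutoffs of q 0.05 and 0.1, 1 tag kept at each position, and the caller's mouse preset for the mappable genome, 1870000000 bp. The submitters' processing notes list GRCh38 and mm10, Bowtie2, SAMtools 1.13 and Picard without roles. The treatment of multiply matching reads is not given in the sources used here. The deposited columns used were length, pileup (signal in tags), fold (ratio over local background), and the authors' −log10 p-value and −log10 q-value; they are averages over a broad peak, and the mouse preset sets the floor of the local background.

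Local background was computed as (pileup + 1)/fold − 1, since the caller adds 1 tag to both. Distances were taken to the ends of 58554 genes in the RefSeq table (GRCh38.p14), with an overlap of at least 1 bp. After the data had been seen, 544 gene rows, 132 of them pseudogenes, were left out. Those rows are listed after chromosome Y and appear to carry positions on unplaced, alternate or patch sequences. No test was made: peaks of 1 library are not replicates. Wilson 95% intervals cover counting error only, and those over gene ends count the 2 ends of a gene separately. Scripts ran in Python 3.11.15 with pandas 2.3.3 and scipy 1.17.1 and were tested on simulated data.

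Genes were named by a rule: for each biotype the 10 highest, 3 widest and 3 highest-fold peaks, the highest peak of each family with at least 4 pseudogenes, those nearest the limits, and every mitochondrial copy. Other named genes (shared peaks, parents, further family members, start site windows) were chosen after their values were seen, and some results are not reported here. Also chosen then was the use of start site windows in place of the members' own promoters. The members and lists were chosen with earlier results of these data known. Alternatives covered the windows, peak strength, overlap, host genes, chromosome X and the genes left out.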

Additional observations from a re-analysis of the deposited data

How the results depend on the processing

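Of 129 values recomputed under 13 alternative settings, 102 stayed within their counting interval or within 1.5 times the number reported, and 27 moved. Transcribed pseudogenes had the higher median length, pileup and fold in 13 of 13 settings and the higher share of isolated genes with a peak in 6 of 6. With a window of 500 bp, 745 peaks at pseudogenes remained, median length at transcribed pseudogenes was 755 bp, and the shares were 6.15% and 27.9% for pseudogenes and transcribed pseudogenes. With 2 kb there were 2292 peaks, 1884 of them at pseudogenes, a median length of 575 bp at transcribed pseudogenes, and shares of 14.3% and 35.7%. With a −log10 q-value of at least 5, the medians at pseudogenes and transcribed pseudogenes were 516 and 773 bp, 23.8 and 35.2 tags, folds of 5.38 and 5.44, and shares of 6.44% and 26.6%. With a fold of at least 4 they were 504 and 755 bp, 22.4 tags at pseudogenes, folds of 5.39 and 5.68, and shares of 6.58% and 24.8%. Requiring 200 bp of overlap gave 8.002% of pseudogenes. Leaving out peaks in the body of another gene left 876 peaks, 609 at pseudogenes. Wider windows and stricter peak limits change these values by their own construction. Alternatives chosen after seeing the data (genes on other sequences kept, which gave 1460 peaks, and peaks at start site windows or at several pseudogenes left out) moved none. No paired analysis was possible because a single replicate number is shared between the assays and no test was made. The list holds no peak under 8 tags, so weaker sites were not detectable, and with 1 library no value has a replicate check.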

Other observations

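The peaks only at pseudogene ends were unevenly spread over the chromosomes. They made up 2.02% of the peaks on chromosome 15, 1.64% on chromosome 7 and 1.62% on chromosome 17, and 0.799% on chromosome 19 and 0.907% on chromosome 21. As a share of the pseudogenes there, 13.2% on chromosome 17 and 12.4% on chromosome 15 had one, against 4.59% on chromosome 21, 4.91% on X and 4.95% on chromosome 19. Median pileup ran from 15.3 tags on chromosome 8 to 33.3 on chromosome 21, where 12 peaks include the ribosomal RNA copies.

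A run of 5 peaks with gaps of at most 100 kb was found on chromosome 15. There, between 85190491 and 85253707, 5 peaks lay in 63.2 kb at copies of dynamin, golgin and the proteoglycan CSPG4, with a median of 16.5 tags. They included 45.76 tags at LOC727751, 36.50 at DNM1P45, 14.88 at GOLGA6L3P and 10.29 at CSPG4P12.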
